A study of Homo sapiens with 2 samples.

Results

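The annexins are a family of proteins that bind negatively charged phospholipids of membranes when calcium is present. Each carries a conserved core built of repeats and a start of its own, which differs between members and takes up partner proteins. They are known for roles in membrane repair, vesicle traffic, the control of inflammation and the surface assembly of plasmin. Annexin A5 is the common probe for phosphatidylserine on the outside of dying cells, which microglia, the phagocytes of the brain, recognise and engulf. The members described are ANXA1, ANXA2, ANXA3, ANXA4, ANXA5, ANXA6, ANXA7 and ANXA11, chosen by gene name, with levels summed over every transcript record of a gene in both libraries. They are 8 of the 26370 genes in the files, have 18 of the 56891 transcript records, and all 8 averaged 1 FPKM or more (fragments per length of transcript and per depth of the library).

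The series concerns survival factors for human microglia and holds 2 RNA libraries of CHME3, an immortalised human line labelled as microglia, at passages 4 to 6. The treated library came from cells given muscarinic receptor antagonists, which block a family of acetylcholine receptors, at 5 µg/ml, a dose the labels call the EC50. The untreated library came from the same line, and both share the line, the culture temperature and the RNA preparation. The compound and the time of exposure are not given in the sources used here.

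Since each condition has 1 library, differences have no replicate check, no test between conditions exists, and every interval below covers counting error only. The estimated depth was 7295689 fragments in the treated and 6702761 in the untreated library. The treated library listed 11652 genes, and the untreated library 11637, at 1 FPKM or more. Below 1 FPKM in both libraries were 17 of 20 microglia markers, and 11 of these had no listed signal at all, among them the defining genes AIF1, CX3CR1, TMEM119 and P2RY13. CD68, a lysosomal marker of phagocytes, was at 12.6 FPKM in the treated and 15.7 in the untreated library, and CD14, a receptor for bacterial lipopolysaccharide, at 1.63 in the treated and 1.97 in the untreated library. Of 14 fibroblast and mesenchymal markers, 9 averaged 1 FPKM or more. In the treated library 6 of these were higher (among them COL1A1, COL6A2, TAGLN and FN1) and 3 lower (THY1, PDGFRB and ACTA2). Of all genes averaging 1 FPKM or more, 50.7% were higher. For 5 of the 9 the treated over untreated ratio had a 95% counting interval wholly over 1, and for 0 wholly under it. Among all such genes these shares were 6.4% and 5.96%. The largest of the 5 ratios was 1.25 (1.19 to 1.32), in TAGLN. All 5 rest on many fragments, from 1982 to 183482 in the treated library. The defining genes COL3A1, LUM, DCN and POSTN were listed at 0 in both. The 14 summed to 6415 FPKM in the treated and 5903 in the untreated library, most of it from FN1, at 3021 in the treated and 2725 in the untreated, and VIM, at 2025 in the treated and 1967 in the untreated library. Over 1 FPKM by mean were also 2 of 5 astrocyte markers (SLC1A3 and GJA1), 1 of 5 neuron markers (TUBB3), 1 of 3 epithelial markers (KRT18), 0 of 5 oligodendrocyte markers and 0 of 3 endothelial markers. RNA18S5, the 18S ribosomal RNA, was listed at 758.9 FPKM in the treated and 363 in the untreated library, a ratio of 2.09 (95% counting interval 2.01 to 2.17). Whether these differences play a part in the annexin values was not tested.

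The genes share more than a name. The most abundant transcripts of ANXA1, ANXA3, ANXA4, ANXA5, ANXA6 and ANXA11 hold 9 neighbouring exons with lengths of 95, 114, 91, 80, 57, 94, 96, 59 and 123 bases, in this order. ANXA2 shares 8 of the 9 lengths, with 60 bases in place of 57. ANXA7 shares only the 95-base and 114-base exons, which lie side by side in it too. ANXA6, whose protein is a doubled annexin, repeats the series in exons 16 to 25, with exons of 54 and 18 bases where the first copy has 57. Its coding sequence has 673 codons, against 320 in ANXA5, 321 in ANXA4, 323 in ANXA3, 339 in ANXA2, 346 in ANXA1, 466 in ANXA7 and 505 in ANXA11.

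**Figure D1:**
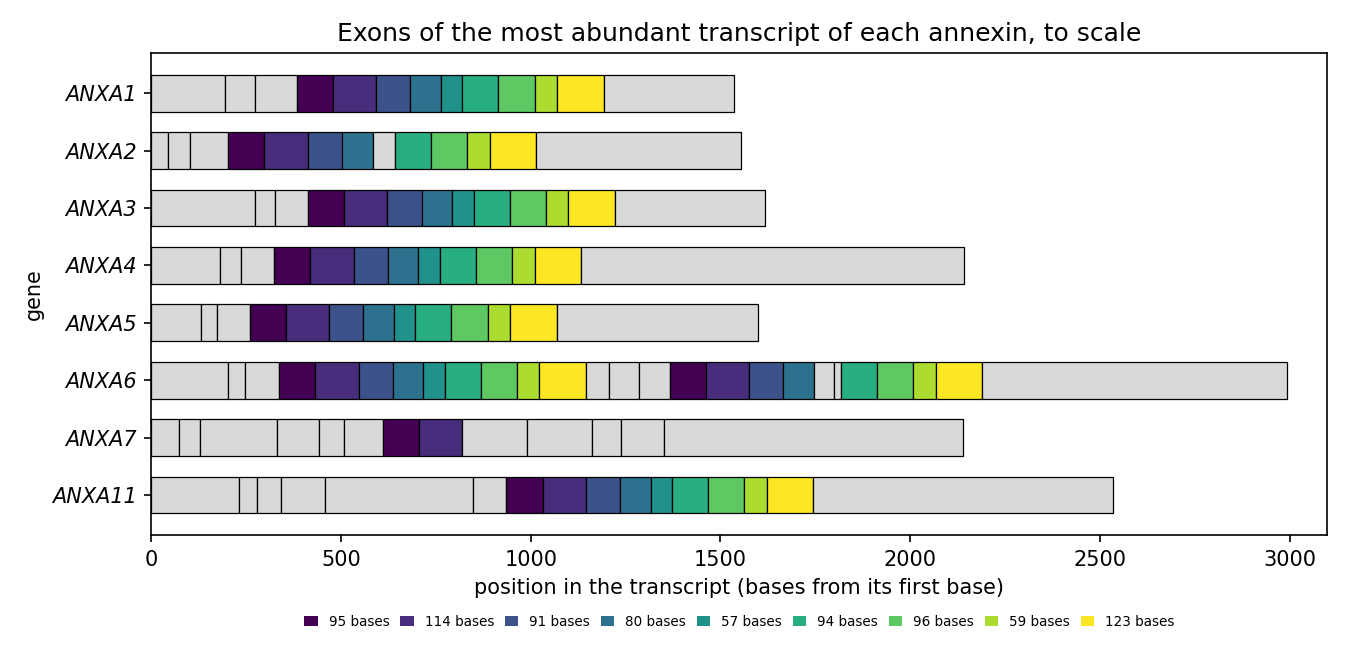
Exons of the most abundant transcript of each annexin, drawn to scale in bases from the start of the transcript, with exons of the shared series coloured by length where at least 2 neighbours keep the order. The 9 colours run in 1 order in 6 genes, 8 of them come back in the second part of ANXA6, and ANXA7 holds 2 of them.

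The 59-base exon of the series lies within the coding sequence and is shown because it lets the members be compared base by base. It occurs 8 times in 7 of the genes, since ANXA6 has it as exon 11 and as exon 24. The sequences are from GENCODE 29 transcripts on GRCh38, each on the strand of its gene, with capitals at the 17 positions that are identical in all 8 copies.
ANXA1: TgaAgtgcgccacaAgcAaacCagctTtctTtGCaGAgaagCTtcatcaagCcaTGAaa
ANXA2: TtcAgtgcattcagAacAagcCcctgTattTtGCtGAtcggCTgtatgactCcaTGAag
ANXA3: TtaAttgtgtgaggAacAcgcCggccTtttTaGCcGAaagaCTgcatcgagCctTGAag
ANXA4: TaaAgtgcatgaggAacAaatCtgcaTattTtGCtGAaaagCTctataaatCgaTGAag
ANXA5: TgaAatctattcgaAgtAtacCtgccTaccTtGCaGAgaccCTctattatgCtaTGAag
ANXA6 exon 11: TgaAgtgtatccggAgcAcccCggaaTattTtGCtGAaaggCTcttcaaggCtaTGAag
ANXA6 exon 24: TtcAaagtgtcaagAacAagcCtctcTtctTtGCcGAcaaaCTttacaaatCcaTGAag
ANXA11: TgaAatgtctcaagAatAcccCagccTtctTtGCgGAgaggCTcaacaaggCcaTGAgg

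These exons lie at chr9:73167497-73167555 (ANXA1, plus strand), chr15:60351193-60351251 (ANXA2, minus), chr4:78601510-78601568 (ANXA3, plus) and chr2:69819280-69819338 (ANXA4, plus). The others lie at chr4:121669954-121670012 (ANXA5, minus), chr5:151131231-151131289 and chr5:151105245-151105303 (ANXA6, minus) and chr10:80157967-80158025 (ANXA11, minus). Over the 28 pairs of copies the identity had a median of 63.6% and ran from 54.2% to 72.9%. The closest pair was ANXA4 and exon 11 of ANXA6, with 43 of 59 bases identical. The 2 copies within ANXA6 had 57.6% of bases identical, below the median of all pairs.

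The starts of the proteins are known to differ between members and to bind partners, and were not compared here. In ANXA1, which damps inflammation, a peptide made from its first 26 residues is known to act on formyl peptide receptors. The codons for them lie at chr9:73158536-73158706 on the plus strand, across an intron, and are shown because the receptors are described below. The start codon is in capitals.
ANXA1 first 26 codons: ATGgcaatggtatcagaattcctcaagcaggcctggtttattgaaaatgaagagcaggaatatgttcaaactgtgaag

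Levels of the 8 genes ranged widely and kept nearly the same order in both libraries. FPKM is a level per length, so genes can be set side by side on it. ANXA2, which pairs with S100A10 at the plasma membrane, was highest, followed by ANXA5 and ANXA6. ANXA1, ANXA11 and ANXA7 formed a middle group, and ANXA3 and ANXA4 were lowest. Together the 8 summed to 1969 FPKM in the treated and 1914 in the untreated library, which was 0.402% and 0.391% of all listed FPKM in the treated and untreated libraries. ANXA2 alone made up 62.2% of that sum in the treated and 62.5% in the untreated library. ANXA2 and ANXA5 together made up 82.5% in the treated and 82.9% in the untreated library. The highest member stood 131 times above the lowest in the treated and 153.5 times in the untreated library.

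ANXA2 (chr15:60347151-60397986, minus strand) was at 1224 FPKM in the treated library, with a 95% Poisson counting interval of 1202 to 1245, and at 1197 (1175 to 1220) in the untreated library. It ranked 70th in level among all genes in the treated and 69th in the untreated library. ANXA5 (chr4:121667997-121696992, minus strand), the phosphatidylserine-binding member, was at 399.7 FPKM (388 to 412) in the treated and 389.7 (377 to 402) in the untreated library, ranked 166th in both. ANXA6 (chr5:151100706-151157882, minus strand), which is linked to endosomes and cholesterol handling, was at 130.5 FPKM (126 to 136) in the treated and 126.6 (122 to 132) in the untreated library. These genes kept their order in both libraries, and each stood clear of the next by its counting interval. The step from ANXA2 to ANXA5 was 3.06-fold in the treated and 3.07-fold in the untreated library, and that from ANXA5 to ANXA6 was 3.06-fold and 3.08-fold in the treated and untreated libraries.

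In the middle group, ANXA1 (chr9:73151731-73170394, plus strand) was at 73.2 FPKM (68.0 to 78.8) in the treated and 65.7 (60.4 to 71.1) in the untreated library. ANXA11 (chr10:80155124-80205677, minus strand), which takes part in vesicle traffic and cell division and tethers RNA granules to lysosomes, was at 66.2 FPKM (62.4 to 70.2) in the treated and 69.99 (65.9 to 74.2) in the untreated library. ANXA7 (chr10:73375431-73414083, minus strand), which drives fusion of secretory vesicles, was at 56.4 FPKM (52.5 to 60.4) in the treated and 48.3 (44.6 to 52.2) in the untreated library. ANXA1 stood above ANXA11 in the treated library and below it in the untreated library, and in both their counting intervals overlapped, so their order is not set by these data. ANXA7 lay below both, with an interval apart from that of its upper neighbour in each library.

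ANXA3 (chr4:78551588-78610451, plus strand) was at 9.62 FPKM (7.82 to 11.7) in the treated and 7.80 (6.13 to 9.76) in the untreated library. ANXA4 (chr2:69741995-69826464, plus strand), a member known from secretory epithelia, was at 9.35 FPKM (7.84 to 11.1) in the treated and 8.85 (7.33 to 10.6) in the untreated library. The gap above them was the widest step of the order, 5.86-fold below ANXA7 in the treated and 5.45-fold in the untreated library. ANXA3 and ANXA4 traded places between the libraries with overlapping intervals, so neither is above the other beyond counting error.

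**Figure D2:**
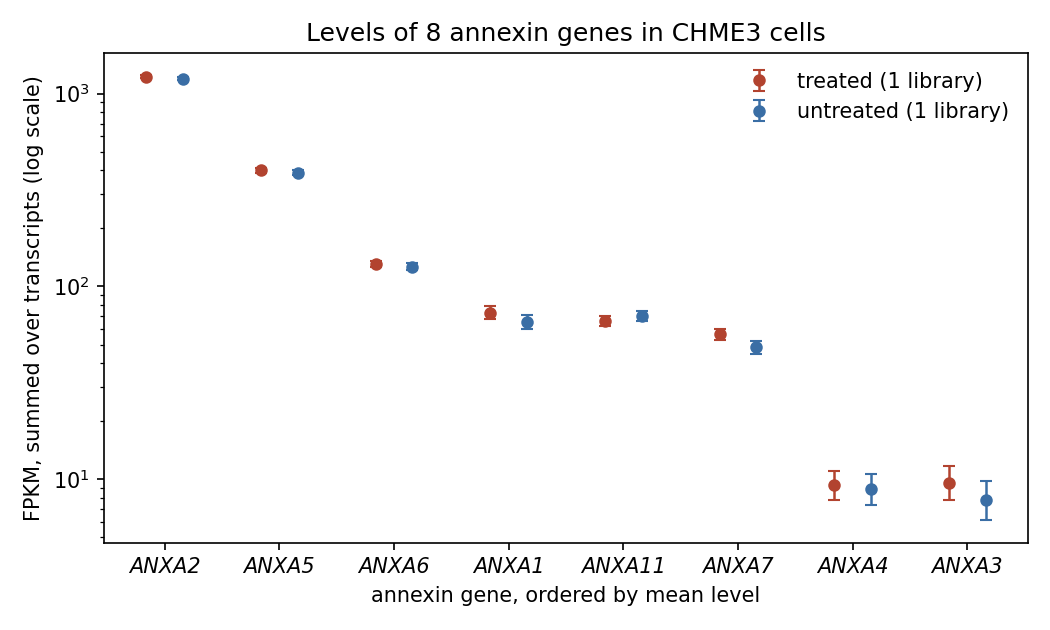
Level of each annexin in FPKM summed over transcripts, on a log axis, in the treated (left of each pair) and untreated library, with bars for the 95% Poisson counting interval of 1 library. The highest gene is ANXA2, at 1224 FPKM in the treated and 1197 in the untreated library, the lowest are ANXA4 at 9.35 FPKM in the treated and ANXA3 at 7.80 FPKM in the untreated library, and each pair of points lies close together.

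The rest of the family was near or below what these libraries can show. ANXA8 was at 0.242 FPKM from 3 fragments in the treated and 0.196 from 2 in the untreated library, and its near copy ANXA8L1 at 0.499 from 7 in the treated and 0.422 from 5 in the untreated library. Reads of these copies may be split between them. ANXA9 was at 0.250 FPKM from 3 fragments in the treated and 0.448 from 5 in the untreated library. ANXA10 was at 0.108 FPKM from 1 fragment in the treated library and listed at 0 in the untreated library. ANXA13 was listed at 0 in both, where 3 fragments would be 0.292 FPKM in the treated and 0.312 in the untreated library. All 5 were under 1 FPKM in both libraries.

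ANXA2 has processed pseudogenes, copies of its messenger RNA that were put back into the genome. The aligned coding sequence of ANXA2 was 98.4% identical to ANXA2P2 over all of its 1017 bases, 93.8% identical to ANXA2P1 over 926 aligned bases and 92.3% identical to ANXA2P3 over 1007. The first 90 coding bases of ANXA2 (chr15:60382400-60386075, minus strand, across an intron) and the matching bases of ANXA2P2 (chr9:33624274-33624363, plus strand) are shown. They are the first 90-base window, in the longest aligned stretch without gaps, that has the median number of differences. That number is 1, and the difference is in capitals.
ANXA2: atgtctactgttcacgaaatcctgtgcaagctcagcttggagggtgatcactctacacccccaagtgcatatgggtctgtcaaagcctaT
ANXA2P2: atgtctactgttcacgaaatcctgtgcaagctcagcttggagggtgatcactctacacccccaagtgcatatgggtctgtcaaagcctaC

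ANXA2P2 was listed at 2.15 FPKM in the treated and 1.75 in the untreated library, ANXA2P1 at 0.236 in the treated and 0.170 in the untreated, and ANXA2P3 at 0.0586 in the treated and 0.126 in the untreated. Of the 50-base stretches of the ANXA2 transcript, 41.5% also occur in these pseudogenes, so the division of reads between them and ANXA2 is uncertain. The 3 copies together were listed at 2.44 FPKM in the treated and 2.04 in the untreated library, against 1224 and 1197 for ANXA2 in the treated and untreated libraries. In ANXA7 2.54% of such stretches also occur in another gene, and in the other 6 annexins none do.

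The comparison asks whether treated and untreated cells differ, and for the annexins the differences were small. Of the 8 genes 7 were higher and 1 lower in the treated library, while 50.7% of the 11668 genes averaging 1 FPKM or more (those over the floor) were higher. The median of log2((treated FPKM + 1)/(untreated FPKM + 1)), the log2 ratio, was 0.06 over the 8 members and 0.00 over all these genes, whose quartiles were -0.10 and 0.11. Of the 8 members, 5 lay within these quartiles. On this scale 1 member, ANXA3, was past 1.2-fold upwards, as were 8.1% of all genes, and 0 members were past it downwards, as were 6.79% of all genes. At 2-fold, which 0.66% of genes passed either way, there were 0 members. The ratio of summed FPKM was 1.03, treated over untreated. In bulk RNA, fewer cells that express a gene and less of its RNA per cell cannot be told apart.

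A counting interval of the FPKM ratio says how far 2 libraries of this depth can be told apart, on fragments estimated from the authors' bounds or from FPKM, length and depth. It lay above 1 in 1 member, ANXA7, where it did so in 6.4% of all genes, and below 1 in 0 members, where it did so in 5.96%. Among the 8129 genes with at least 100 fragments in each library these shares were 6.77% and 7.09%, so an interval that leaves out 1 is common between these libraries. ANXA7 rested on 802 fragments in the treated and 641 in the untreated library, an FPKM ratio of 1.17 (1.05 to 1.30). Its log2 ratio, 0.22, was above that of 88.8% of genes. ANXA1 rested on 720 fragments in the treated and 588 in the untreated library, an FPKM ratio of 1.12 (log2 ratio 0.16), and its lower bound, 0.9998, just takes in 1 beside an upper bound of 1.25.

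ANXA3 had the largest log2 ratio of the members, 0.27, just past the 1.2-fold mark of 0.26. Its FPKM ratio of 1.23 rested on 100 fragments in the treated and 75 in the untreated library and had an interval of 0.906 to 1.69, which includes 1. ANXA4 rested on 134 fragments in the treated and 118 in the untreated library, with a ratio of 1.06 (0.819 to 1.36). The intervals of these low members reach up to 1.69 in ANXA3 and 1.36 in ANXA4, so differences within them were not detectable at this depth.

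The abundant members were bounded far more tightly. ANXA2 rested on 12293 fragments in the treated and 11282 in the untreated library, with an FPKM ratio of 1.02 (0.996 to 1.05; log2 ratio 0.03). ANXA5 rested on 4109 fragments in the treated and 3742 in the untreated library, with a ratio of 1.03 (0.981 to 1.07). ANXA6 rested on 2668 fragments in the treated and 2405 in the untreated library, with a ratio of 1.03 (0.975 to 1.09). All 3 intervals include 1, and none reaches 1.2. Among the 451 genes with at least 2000 fragments in each library, the log2 ratio had quartiles of -0.06 and 0.05, and ANXA2, ANXA5 and ANXA6, at 0.03, 0.04 and 0.04, lay between them. Among the 2701 genes with at least 500 fragments in each library the quartiles were -0.07 and 0.05, and there ANXA7 and ANXA1 lay above the upper one and ANXA11, at -0.08, below the lower one.

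ANXA11 was the member lower in the treated library, with 1127 fragments in the treated and 1111 in the untreated library. Its log2 ratio was -0.08 and its FPKM ratio 0.946 (0.870 to 1.03), which includes 1. The log2 ratio of its leading transcript on its own was 0.11, while fragments of all its forms scaled by depth gave -0.09. The division among its forms, described below, is an estimate, so which forms carry the direction is not settled.

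**Figure D3:**
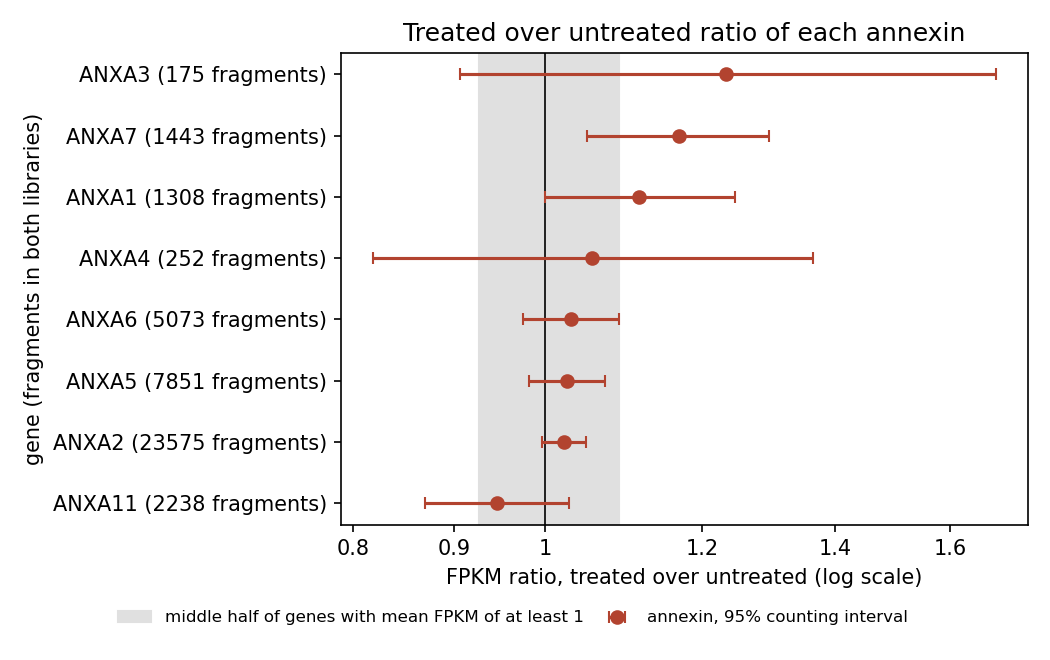
FPKM ratio of each annexin, treated over untreated, on a log axis, with the 95% counting interval and the fragments of both libraries beside the gene name. The grey band spans the quartiles of the FPKM ratio of all genes over the floor of 1 FPKM, 0.926 to 1.09. The interval is narrowest for ANXA2 (0.996 to 1.05), widest for ANXA3 (0.906 to 1.69) and clear of 1 in ANXA7 (1.05 to 1.30).

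Transcript records divide the sums in 4 of the genes, while ANXA1, ANXA3, ANXA4 and ANXA5 have 1 record each. These divisions are Cufflinks estimates, since most reads fit several forms. The authors' bounds of a transcript did not overlap between the libraries in 2 of 11 annexin transcripts that averaged 1 FPKM or more, beside 17.6% of 11897 such transcripts of all genes with several records.

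In ANXA2 the leading form, NM_004039, was at 1079.8 FPKM in the treated and 1055 in the untreated library, 88.2% of the gene in the treated and 88.1% in the untreated library. The next, NM_001002857, which adds an 81-base exon and codes for the same protein, was at 127.9 FPKM in the treated and 125.6 in the untreated library, 10.5% in both. NM_001136015, also with the same coding sequence, was at 7.99 FPKM in the treated and 8.07 in the untreated library. NM_001002858, which begins at an earlier start codon and adds 18 codons, was at 7.95 FPKM in the treated and 8.67 in the untreated library. The shares of the 4 forms were thus nearly the same in both libraries. The added 54 coding bases (chr15:60386076-60397913, minus strand, across an intron) are shown because they alone distinguish that protein, with the start codon in capitals.
ANXA2 coding extension: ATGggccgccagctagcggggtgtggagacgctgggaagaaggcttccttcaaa

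In ANXA6 the long form, NM_001155, was at 127.3 FPKM in the treated and 125.8 in the untreated library. The short form, NM_001193544, was at 3.14 FPKM in the treated library (authors' bounds 1.98 to 4.30) and 0.862 in the untreated library (0.232 to 1.49), bounds that do not overlap. It made up 2.41% of the gene in the treated and 0.680% in the untreated library, from an estimated 61 fragments in the treated and 16 in the untreated library. The short form has a first exon of 123 bases of its own and lacks the first 32 codons of the long form. Those 96 bases (chr5:151140166-151147901, minus strand, across an intron) are shown because they are what the forms do not share in their coding sequence, with the start codon in capitals.
ANXA6 coding start absent from the short form: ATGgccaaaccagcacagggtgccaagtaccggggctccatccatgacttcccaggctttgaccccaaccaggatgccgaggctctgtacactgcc

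ANXA7 has a cassette exon of 66 bases, all of it coding, which is known to be used in muscle and brain. The form that holds it, NM_004034, was listed at 3e-05 FPKM in the treated and 4e-05 in the untreated library, with authors' upper bounds of 0.135 in the treated and 0.145 in the untreated library. The form without it, NM_001156, held practically all of the gene, at 56.4 FPKM in the treated and 48.3 in the untreated library. The exon (chr10:73396044-73396109, minus strand) is shown in capitals between 30 bases of each neighbour, above the junction that the listed form has in its place, where capitals mark the downstream exon.
ANXA7 cassette exon: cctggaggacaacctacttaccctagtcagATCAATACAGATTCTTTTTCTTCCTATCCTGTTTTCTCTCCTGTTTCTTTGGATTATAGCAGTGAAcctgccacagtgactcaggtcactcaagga
ANXA7 junction without the cassette exon: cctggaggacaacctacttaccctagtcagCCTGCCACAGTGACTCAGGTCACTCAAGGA

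ANXA11 was split most evenly. NM_145868 was at 36.6 FPKM in the treated and 33.7 in the untreated library, 55.3% of the gene in the treated and 48.2% in the untreated library. NM_001157, which lacks a noncoding 49-base exon and codes for the same protein, was at 28.4 FPKM in the treated and 29.6 in the untreated library, 43.0% in the treated and 42.4% in the untreated library. These 2 leading forms summed to 65.0 FPKM in the treated and 63.4 in the untreated library, so together they were slightly higher in the treated library, unlike the gene. The 4 other forms summed to 1.18 FPKM in the treated and 6.60 in the untreated library. Most of that gap was NM_001278407, which has noncoding exons of 58 and 102 bases and was listed at 0.000942 FPKM in the treated library (authors' bounds 0 to 0.121) and 3.23 in the untreated library (1.88 to 4.58), bounds that do not overlap. NM_145869 was at 0.507 FPKM in the treated and 1.62 in the untreated library, and NM_001278408 at 0.667 in the treated and 1.21 in the untreated library. NM_001278409, whose coding sequence differs, was listed at 0 in the treated library and at 0.541 FPKM in the untreated library. All 4 minor forms were lower in the treated library, but the authors' bounds overlapped between the libraries in each of them except NM_001278407.

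**Figure D4:**
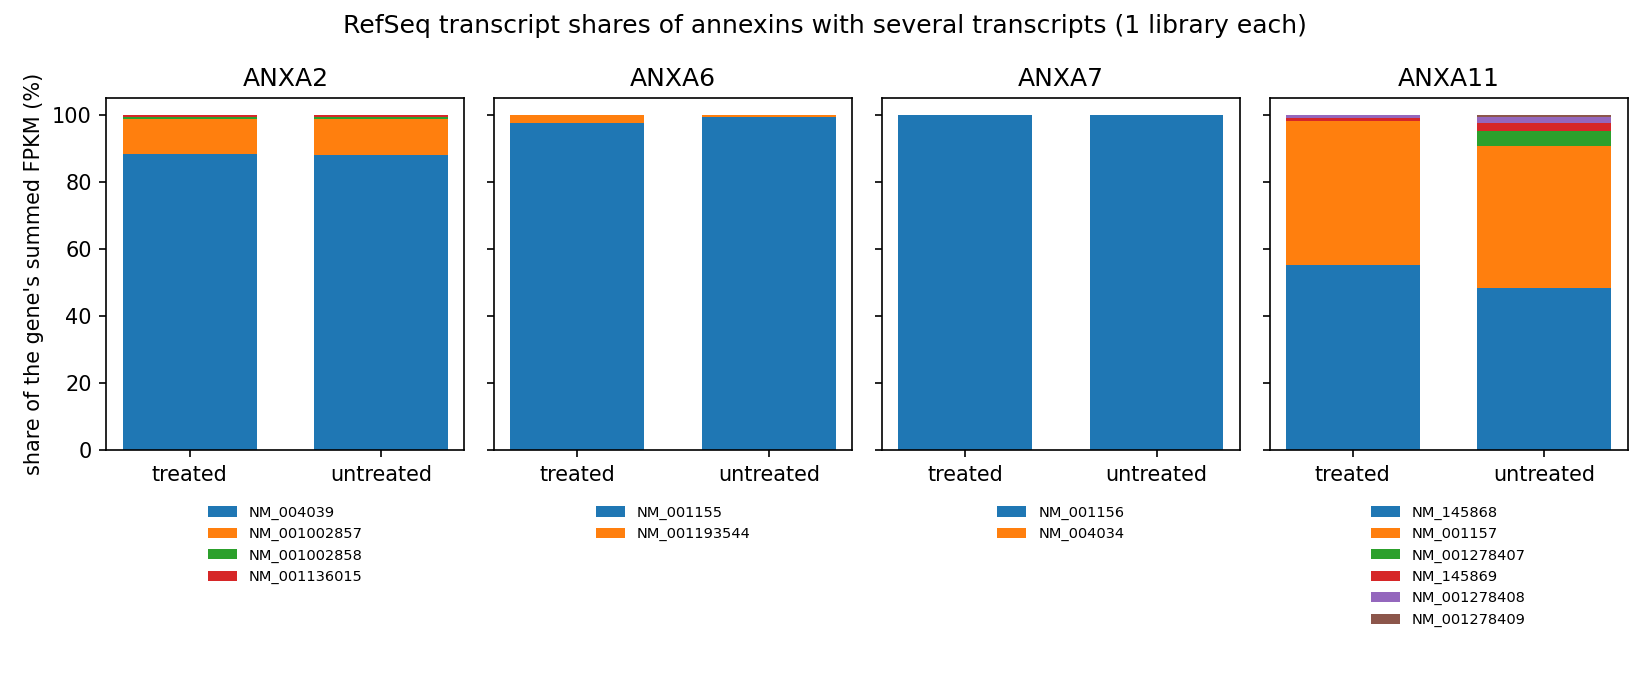
Share of each gene's summed FPKM given by each RefSeq transcript, in percent, in the treated (left) and untreated library of the 4 annexins with several records. The bars of ANXA2 and ANXA7 look alike between libraries, the short form of ANXA6 takes 2.41% and 0.680% in the treated and untreated libraries, and in ANXA11 the 2 leading forms take 98.2% and 90.6% in the treated and untreated libraries.

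Annexins work with small calcium-binding proteins, and these were mostly abundant here. S100A10, the partner of ANXA2, was at 329 FPKM in the treated and 347 in the untreated library, a ratio of 0.950 (0.893 to 1.01). There were 3.72 FPKM of ANXA2 per FPKM of S100A10 in the treated and 3.45 in the untreated library. S100A11, the partner of ANXA1, was at 459 FPKM in the treated and 408 in the untreated library, a ratio of 1.13 (1.04 to 1.22). S100A6, a partner of ANXA11 among others, was at 949 FPKM in the treated and 857 in the untreated library, a ratio of 1.11 (1.05 to 1.16). PDCD6, which binds ANXA7 and ANXA11, was at 56.2 FPKM in the treated and 53.6 in the untreated library, and SRI, sorcin, which binds ANXA7, at 46.4 in the treated and 47.3 in the untreated library, both with intervals that include 1. S100A4 was at 4.98 FPKM in the treated and 5.49 in the untreated library, and S100B was listed at 0 in both. Of 6 partners over 1 FPKM, 3 were higher and 3 lower, and 0 were 1.2-fold apart. Intervals above 1 were found in 2, S100A11 and S100A6, as in 6.4% of all genes over the floor. These rest on many fragments (1355 and 3473 in the treated library), where a small ratio can leave out 1.

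The receptors through which ANXA1 acts were not seen. FPR1, FPR2 and FPR3, the formyl peptide receptors, were listed at 0 in both libraries. For FPR2 3 fragments would be 0.225 FPKM in the treated and 0.242 in the untreated library, and for FPR1 0.347 in the treated and 0.369 in the untreated. ANXA2R, named as a receptor for ANXA2 (chr5:43039080-43040345, minus strand), was at 4.54 FPKM from 35 fragments in the treated and 7.36 from 53 in the untreated library, an FPKM ratio of 0.617 (0.393 to 0.968), with a log2 ratio of -0.59. It lies inside LOC648987 on the same strand, a noncoding gene listed at 4.18 FPKM in the treated and 3.01 in the untreated library and named after its values were seen, so the split of reads between them is uncertain.

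The plasminogen system, which ANXA2 with S100A10 helps to assemble at the cell surface, had 6 of 9 genes over the floor. Of these 4 were higher and 2 lower, and the median log2 ratio was 0.06. At least 1.2-fold lower was 1 of them, as were 6.79% of all genes. PLAU, urokinase, was at 15.95 FPKM in the treated and 14.0 in the untreated library, and PLAT, the tissue plasminogen activator, at 14.4 in the treated and 13.7 in the untreated library. PLGRKT, a plasminogen receptor, was at 9.89 FPKM in the treated and 12.9 in the untreated library, a ratio of 0.767 (0.526 to 1.10), which includes 1. PLG, plasminogen itself, was listed at 0 in both.

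Phosphatidylserine is the lipid that annexin A5 binds. Of 17 genes that make, flip or scramble it, 11 were over the floor, with 3 higher, 8 lower and a median log2 ratio of -0.03. Among all genes over the floor 50.7% were higher. Past 1.2-fold upwards was 1 of the 11, PLSCR1, as were 8.1% of all genes, and downwards 1, XKR8, as were 6.79%. An interval above 1 was found in 1, PLSCR1, as in 6.4% of all genes. PLSCR1, a scramblase, was at 19.8 FPKM in the treated and 15.9 in the untreated library, a ratio of 1.25 (1.04 to 1.50). XKR8, a scramblase of dying cells, was at 0.763 FPKM in the treated and 1.29 in the untreated library from 14 fragments in the treated and 22 in the untreated, and its interval includes 1. PTDSS1, a phosphatidylserine synthase, was highest, at 39.4 FPKM in the treated and 41.1 in the untreated library. The second synthase, PTDSS2, was at 17.2 FPKM in the treated and 19.7 in the untreated library, and the flippase ATP11B at 6.19 in the treated and 7.10 in the untreated library, both with intervals that include 1. Of 12 genes that recognise the lipid, 6 were over the floor, 3 higher and 3 lower, with a median of -0.01, 0 past 1.2-fold and 0 intervals that left out 1. AXL, a receptor kinase that acts through a bridging ligand, was at 190.4 FPKM in the treated and 194.5 in the untreated library, its ligand GAS6 at 42.6 in the treated and 41.0 in the untreated, and its relative MERTK at 2.54 in the treated and 2.98 in the untreated library. The third receptor of this kind, TYRO3, was at 15.2 FPKM in the treated and 13.9 in the untreated library, and the ligand PROS1, protein S, at 2.58 in the treated and 3.11 in the untreated library.

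Membrane repair, in which annexins seal torn membranes with calpains, dysferlin and the ESCRT machinery, showed 10 genes higher and 7 lower of 17 over the floor, with a median log2 ratio of 0.00. None was 1.2-fold apart, and 2 intervals lay above 1, as did those of 6.4% of all genes over the floor. The 2 genes, CAVIN1 and AHNAK, rest on many fragments, 6543 and 12809 in the treated library. CAVIN1, a caveolar coat protein listed under its older name PTRF, was at 266 FPKM in the treated and 249.8 in the untreated library, a ratio of 1.06 (1.03 to 1.10). AHNAK, a giant scaffold that binds ANXA2 with S100A10 and was named after its values were seen, was at 102 FPKM in the treated and 99.1 in the untreated library, a ratio of 1.03 (1.01 to 1.06). CHMP4B, an ESCRT filament subunit, was at 132.8 FPKM in the treated and 123.6 in the untreated library, and PDCD6IP, the ESCRT adaptor ALIX, at 19.3 in the treated and 20.7 in the untreated library. VPS4A, an ESCRT ATPase, was at 44.2 FPKM in the treated and 40.7 in the untreated library, and SMPD1, acid sphingomyelinase, at 13.9 in the treated and 15.2 in the untreated library, and the intervals of all 4 include 1.

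Annexin A1 is induced by glucocorticoids and restrains phospholipase A2, so both systems were listed. Of 7 glucocorticoid genes, all over the floor, 1 was higher and 6 lower, where 50.7% of all genes were higher. Their median log2 ratio was -0.10, at the lower quartile of all genes. ANXA1 was at 0.16, with an interval of its FPKM ratio that includes 1. None of the 7 was 1.2-fold apart, and 2 had intervals below 1, as did 5.96% of all genes. NR3C1, the glucocorticoid receptor, was at 15.1 FPKM in the treated and 17.8 in the untreated library, a ratio of 0.851 (0.767 to 0.945), and PER1, a clock gene, at 15.0 in the treated and 17.1 in the untreated library, a ratio of 0.873 (0.771 to 0.992). TSC22D3, which encodes GILZ, was at 8.12 FPKM in the treated and 8.77 in the untreated library, and ZFP36, an RNA-decay factor, at 9.84 in the treated and 10.7 in the untreated library. DUSP1, a phosphatase of MAP kinases and the highest of the list, was at 29.6 FPKM in the treated and 29.5 in the untreated library. Of 15 genes of phospholipase A2 and eicosanoid synthesis, 7 were over the floor, with a median of -0.09. Of these 2 passed 1.2-fold upwards, as did 8.1% of all genes, and 2 downwards, as did 6.79%. PLA2G4A, the cytosolic phospholipase A2, was at 0.855 FPKM from 17 fragments in the treated and 1.66 from 31 in the untreated library, a ratio of 0.515 (0.267 to 0.958). PTGES2, a prostaglandin E synthase, was at 41.2 FPKM in the treated and 33.1 in the untreated library, a ratio of 1.24 (1.09 to 1.42). PTGES3, a co-chaperone with prostaglandin E synthase activity, was highest, at 200.5 FPKM in the treated and 208 in the untreated library. PLA2G6, a phospholipase that needs no calcium, was at 1.25 FPKM from 26 fragments in the treated and 0.829 from 16 in the untreated library. PTGIS, prostacyclin synthase, was at 0.908 FPKM from 35 fragments in the treated and 1.38 from 50 in the untreated library. The intervals of PLA2G6 and PTGIS include 1.

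**Figure D5:**
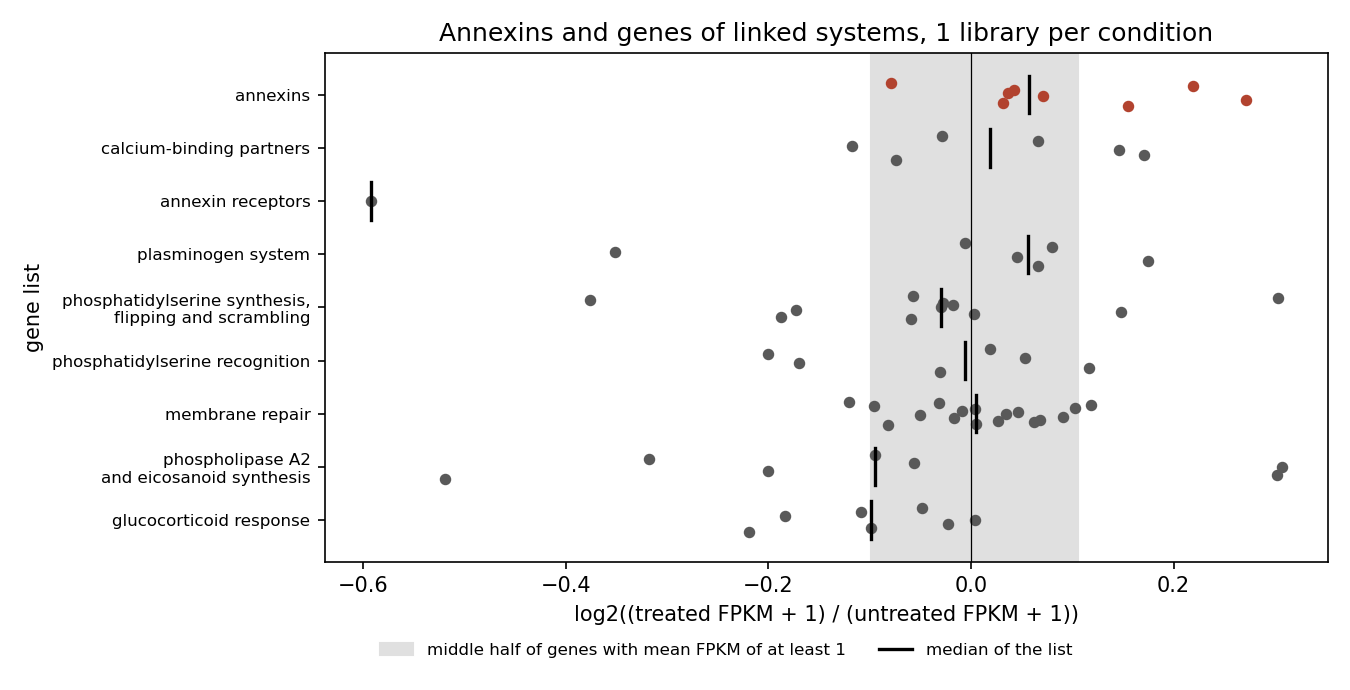
The log2 ratio of (treated FPKM + 1) over (untreated FPKM + 1) for annexins (red) and for genes of linked systems (grey) over the floor, 1 point a gene, with a bar at the median of each list. The grey band spans the quartiles of all genes, -0.10 to 0.11. The annexin median is 0.06, the glucocorticoid median -0.10, and ANXA2R lies at -0.59.

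By level in both libraries, measured as Euclidean distance in log2(FPKM + 1), the protein-coding genes nearest to ANXA2 were ALDOA, a glycolytic aldolase, at 1264.0 FPKM in the treated and 1222 in the untreated library, EEF2, a translation elongation factor, and RPS3A, a ribosomal protein. Nearest to ANXA3, the lowest member by mean, were ORC3, of the origin recognition complex, at 9.61 FPKM in the treated and 7.81 in the untreated library, KATNA1, which severs microtubules, and IFT22, of intraflagellar transport. The distance was 0.0552 for ALDOA and 0.00265 for ORC3, each over 2 libraries.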

How the data were processed

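RNA was measured in 1 treated and 1 untreated library of CHME3 cells, grouped by their treatment labels. TopHat, Cuffdiff and hg38 are named in the submitters' processing notes, without versions, and per the file headers Cufflinks wrote each record under a RefSeq transcript name. The authors deposited FPKM values, with lower and upper bounds, in a field of mixed content that is other than plain counts. The authors' files also hold a score per transcript, which was not used.

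FPKM was summed over the transcripts of a gene, and ratios were taken on log2(FPKM + 1), which understates changes of low genes. Genes over a floor of a mean of 1 FPKM form the background. Fragments were recovered from the deposited bounds as the square of 2 × FPKM over the distance to the upper bound. Of single-transcript values of at least 3 fragments, 21.3% of 5992 in the treated and 21.1% of 5931 in the untreated library were whole within 0.01, so these are estimates. For genes with several transcripts they came from FPKM, length and depth. Intervals are 95% exact conditional binomial (ratios) or Poisson (levels) and cover counting error only. The ratio intervals were tried on simulated Poisson counts, which follow the model they assume. The level intervals and the recovery of fragments from bounds were not tested. They leave out PCR duplicates and the division of reads between forms or copies. Strandedness is not given in the sources used here.

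The members, 18 gene lists, 1.2-fold mark and alternatives were chosen with earlier results of these data known. The genes named are all annexins and their pseudogenes, from each list its highest gene and up to 4 genes over the floor, taken by largest absolute log2 ratio, and the 3 protein-coding genes nearest in level to the highest and lowest member. S100B, PDCD6, SRI, FPR1, FPR2, FPR3, PLG, RNA18S5, THY1, PDGFRB, ACTA2, VIM and the markers listed at 0, and others marked so, were named after their values were seen. Some genes that this rule takes are not reported here. Older symbols were matched through a RefSeq table. Sequences are from GENCODE 29 on GRCh38, matched by exon coordinates, and all internal exons of the 8 leading transcripts were identical between the files and GENCODE. Proteins were not used here, so a planned comparison of protein identity was not made, and the identity to pseudogenes was added after seeing the files. Python 3.11.15, numpy 2.4.6, scipy 1.17.1, pandas 2.3.3, Biopython 1.88 and matplotlib 3.10.9 were used.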

Additional observations from a re-analysis of the deposited data

How the results depend on the processing

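Each library stands alone in its group, so leaving one out was not possible. No paired analysis was possible because each group has 1 library. The median log2 ratio of the annexins stayed between 0.05 and 0.09 over 9 alternatives. Among these, no floor and a floor of 5 FPKM could not move it, since the lowest member averages 8.71 FPKM. Adding the pseudogene copies alters ANXA2 only and left the median as it was. With a pseudocount of 5 the number of members at least 1.2-fold apart was 0, where ANXA3 had been just past the mark. With recovered fragments scaled by depth in place of FPKM, and with the median ratio of genes set to 1, the number whose counting interval leaves out 1 was 2, with ANXA1 added to ANXA7. Pseudocounts do not enter that interval and give it no other value. With the most abundant transcript alone, ANXA11 had a log2 ratio of 0.11 in place of -0.08, and 8 members were higher. By estimated fragments the leading ANXA2 form held 87.6% in the treated and 87.5% in the untreated library. Among the scalings tried, fragments scaled by depth moved the median log2 ratio of all genes farthest, by -0.0056. The alignment of proteins under another gap penalty was not run. ANXA3 and ANXA4, with 75 to 134 fragments a library, are limited most by depth.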
